A study of Mus musculus with 30 samples.

Results

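Fragments of 80 box C/D small nucleolar RNA (snoRNA) genes were counted in small RNA libraries of mouse cortex. The genes were all those of GENCODE vM21 whose symbol begins with Snord, apart from an imprinted group not analysed here, and they made up 80 of the 6112 small RNA genes of the reference. A read belonged to a gene when its whole sequence matched the annotated transcript exactly and in the sense direction. Over 30 libraries, 31668 distinct sequences met this rule, and each of the 80 genes had at least 1 read in some library.

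Box C/D snoRNAs are short nucleolar RNAs, most of them cut out of introns of host genes. They carry box C (UGAUGA at its core) near the 5′ end and box D (CUGA) near the 3′ end, often with internal copies called C′ and D′, and they bind fibrillarin, NOP56, NOP58 and SNU13. Most guide the 2′-O-methylation of ribosomal RNA (rRNA) or spliceosomal RNA by pairing with the target next to box D or D′, and a few, such as U8, U14 and U22, take part in cutting the rRNA precursor. Shorter RNAs with snoRNA sequence are found in many tissues, and several of them have been found bound to Argonaute proteins.

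The cortex came from 6-month-old mice of the C57BL/6J background, either 5xFAD (AD) or wildtype littermates (WT). 5xFAD mice were hemizygous for transgenes of mutated human amyloid precursor protein and presenilin 1, which are driven by the neuronal Thy1 promoter, so the model overexpresses these proteins in neurons. Small RNA was sequenced after direct adapter ligation (traditional-seq, 7 WT and 7 AD libraries) or after treatment with AlkB, which removes methyl groups from RNA bases, and T4 polynucleotide kinase, which repairs RNA ends (PANDORA-seq, 8 WT and 8 AD libraries). Both sexes were used and sex was not analysed here. The study counts each library of a protocol as a separate mouse.

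Traditional-seq libraries held 9370669 to 17053412 reads, of which 9989 to 34945 matched a Snord gene. PANDORA-seq libraries held 54926347 to 105876141 reads, of which 87239 to 510004 matched. At least 10 reads were found for 61 to 70 of the genes in a traditional-seq library and for 79 to 80 in a PANDORA-seq library. The deposited reads were 15 to 42 nt long in traditional-seq and 15 to 45 nt in PANDORA-seq. Replicates 3 and 4 of traditional-seq WT stood apart from their group, with Snord levels of 1111 and 923 RPM (reads per 1000000 reads of the library) against 2188 to 3095 in the other WT libraries, and with 20.6% and 21.3% of these reads at 15 to 19 nt. For the main summed values and the counts of called genes, the values without them are given too. Hairpins of the neural miRNAs miR-124, miR-9 and miR-128 summed to 87614 to 291798 RPM in traditional-seq and 1670 to 6881 RPM in PANDORA-seq, with all 8 hairpins found. Those of muscle ran from 269.9 to 7913 RPM in traditional-seq and from 1.97 to 192 RPM in PANDORA-seq, those of vascular cells from 5316 to 12232 and from 41.5 to 237 RPM, those of oligodendrocytes from 268 to 1488 and from 26.5 to 158 RPM, and the liver, red blood cell and myeloid lists stayed at or below 755 RPM. The part of other cells and tissues in the Snord values was not tested.

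The first sequences show how the leading fragments of both protocols differed at their 3′ ends. In the sequences below, T stands for U. Every run of TGATGA, the letters of box C or C′, and of CTGA, those of box D or D′, is in capitals, also where runs overlap. The capitals mark the letters only and do not show that a run is a box. Each pair is the most-read fragment of a gene in traditional-seq and then in PANDORA-seq, and each member of a pair starts at the same base.
Snord85, traditional-seq: ggtcgaTGATGAgagctttgttCTGAgc
Snord85, PANDORA-seq: ggtcgaTGATGAgagctttgttCTGAg
Snord43, traditional-seq: ctctgtgCTGAatgtcaagttCTGAtt
Snord43, PANDORA-seq: ctctgtgCTGAatgtcaagttCTGAt
Snord52, traditional-seq: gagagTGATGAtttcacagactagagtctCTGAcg
Snord52, PANDORA-seq: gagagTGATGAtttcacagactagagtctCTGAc
Snord95, traditional-seq: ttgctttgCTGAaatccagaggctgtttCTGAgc
Snord95, PANDORA-seq: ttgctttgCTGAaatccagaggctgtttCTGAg

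In each of these pairs the traditional-seq fragment ended 2 nt after a CTGA and the PANDORA-seq fragment 1 nt after it. The Snord85 fragment covered bases 42 to 69 of the 73-nt gene in traditional-seq. Its level was 296.7 RPM ± 156 (SD, n = 14) in traditional-seq, where it made up 60.6% of the reads of the gene, and 7.02 RPM ± 2.87 (SD, n = 16) in PANDORA-seq. The fragment 1 nt shorter had the opposite order, with 3.03 RPM ± 1.31 in traditional-seq and 91.9 RPM ± 38.1 in PANDORA-seq. Snord43, a guide of small-subunit rRNA methylation that the annotation lists as a miRNA gene, lies inside Rpl3. Its 27-nt fragment (bases 70 to 96, GRCm38 chr15:80082859-80082885, minus strand) stood at 279 RPM ± 72.1 in traditional-seq and 0.0232 RPM ± 0.0256 in PANDORA-seq, and the 26-nt form at 7.74 RPM ± 2.82 and 10.9 RPM ± 7.59. The Snord52 and Snord95 genes guide methylation of the large-subunit rRNA. The 35-nt piece of Snord52 (chr17:34950983-34951017, minus strand) covered bases 1 to 35 of the 66-nt gene, with 109.7 RPM ± 61.2 in traditional-seq or 94.4% of the reads of the gene. Snord95 (the longer fragment at chr11:48803171-48803204, plus strand, inside Rack1) had 20.4 RPM ± 10.3 of the longer fragment in traditional-seq and 87.8 RPM ± 41.3 of the shorter one in PANDORA-seq.

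The next sequences show genes whose leading fragment came from another stretch of the same snoRNA in each protocol (Snord14c and Snord12) or ran further from the same first base (Snord57).
Snord14c, traditional-seq: tcgctgTGATGAtggattccaaaacc
Snord14c, PANDORA-seq: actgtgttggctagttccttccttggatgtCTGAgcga
Snord12, traditional-seq: tgaaCTGATGAtatc
Snord12, PANDORA-seq: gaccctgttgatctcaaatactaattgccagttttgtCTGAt
Snord57, traditional-seq: tggaaaggatgaacgaacttggcCTGAcc
Snord57, PANDORA-seq: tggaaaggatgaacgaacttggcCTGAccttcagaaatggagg

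Snord14c is a copy of U14 inside the heat shock gene Hspa8. Its 5′ end piece of 26 nt (chr9:40803583-40803608, plus strand) matched Snord14d as well and stood at 14.9 RPM ± 7.72 in traditional-seq and 0.0562 RPM ± 0.0453 in PANDORA-seq. Its 3′ end piece of 38 nt (chr9:40803631-40803668) stood at 0.0242 RPM ± 0.0727 and 90.6 RPM ± 49.7 in the same order. Snord12, a guide of large-subunit rRNA methylation inside the non-coding RNA Zfas1, had a 15-nt leading fragment around box C in traditional-seq (27.8 RPM ± 15.8, chr2:167065281-167065295, plus strand). In PANDORA-seq its leading fragment was 42 nt long and ended 1 nt after a CTGA (24.6 RPM ± 23.4, chr2:167065316-167065357), and no traditional-seq library held that sequence. Snord57, inside Nop56, kept its first base in both protocols and ran from 29 nt (63.7 RPM ± 41.7 in traditional-seq) to 43 nt (14.3 RPM ± 8.99 in PANDORA-seq), a length above the 42 nt that the traditional-seq files reach.

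The letters of both boxes were looked for in the annotated genes with a plain search on the sense strand. TGATGA was present in the first 30 nt of 53 of the 80 genes (66.25%), against 0% of 42 Snora genes, the H/ACA class of snoRNAs, and 5.36% of the other small RNA genes. CTGA was present in the last 25 nt of 79 of the 80 genes (98.75%), against 14.3% of Snora genes and 21.3% of the others. These other genes still include the imprinted Snord group left out here, and 274 of the 5990 carried both motifs. The genes were 64 to 238 nt long with a median of 79.5 nt. Of the 80 genes, 77 lie inside 52 host genes and 3 (Snord13, Snord104 and Snord118) lie outside one. Snord80 is annotated at 77 nt and at 81 nt in one place, and reads that match both entries were split equally between them, so each entry holds only a part of the reads of the place and both count as genes.

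The most-read fragments repeated this pattern across the members. A fragment with a mean of at least 1 RPM was found for 43 genes in traditional-seq, and 29 of these fragments ended 2 nt after a CTGA while 0 ended 1 nt after it. In PANDORA-seq 60 genes had such a fragment, of which 30 ended 1 nt after a CTGA and 3 ended 2 nt after it. These counts are by gene, so a sequence shared by several genes counts for each of them. The traditional-seq fragments were 15 to 41 nt long (median 30 nt), with 16 in the 5′ part and 27 in the 3′ part of the gene. The PANDORA-seq fragments were 26 to 44 nt long (median 38 nt), with 26 in the 5′ part and 34 in the 3′ part. A single sequence held a median of 38.2% of the reads of its gene in traditional-seq and 21.9% in PANDORA-seq. Of 39 genes with such a fragment in both protocols, 26 had it in the same part of the gene, 6 moved from the 5′ part in traditional-seq to the 3′ part in PANDORA-seq and 7 moved the other way. In 15 genes the first base was the same, and in 12 of these the PANDORA-seq fragment was 1 nt shorter.

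Over all Snord reads, 68.7% ± 4.75 (SD, n = 14) ended 2 nt after a CTGA in traditional-seq and 6.12% ± 0.728 (SD, n = 16) did so in PANDORA-seq. The share that ended 1 nt after a CTGA was 2.12% ± 0.304 in traditional-seq and 39.7% ± 3.96 in PANDORA-seq. For both measures the libraries of the protocols did not overlap, with 60.0% as the lowest traditional-seq and 8.55% as the highest PANDORA-seq value at 2 nt. Without the 2 traditional-seq WT libraries that stood apart, the traditional-seq shares were 70.1% ± 3.47 at 2 nt and 2.18% ± 0.286 at 1 nt (n = 12). Each of these positions takes up 2.84% of the possible end positions in the genes. The pattern was shared by the members: among genes with at least 1 RPM of reads at these 2 positions together, more reads ended at 2 nt in 50 of 50 genes in traditional-seq, and more ended at 1 nt in 50 of 59 genes in PANDORA-seq. Snora reads ended 2 nt after a CTGA in 0.709% ± 0.326 of cases in traditional-seq and 1 nt after it in 0.757% ± 0.746 in PANDORA-seq.

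**Figure D1:**
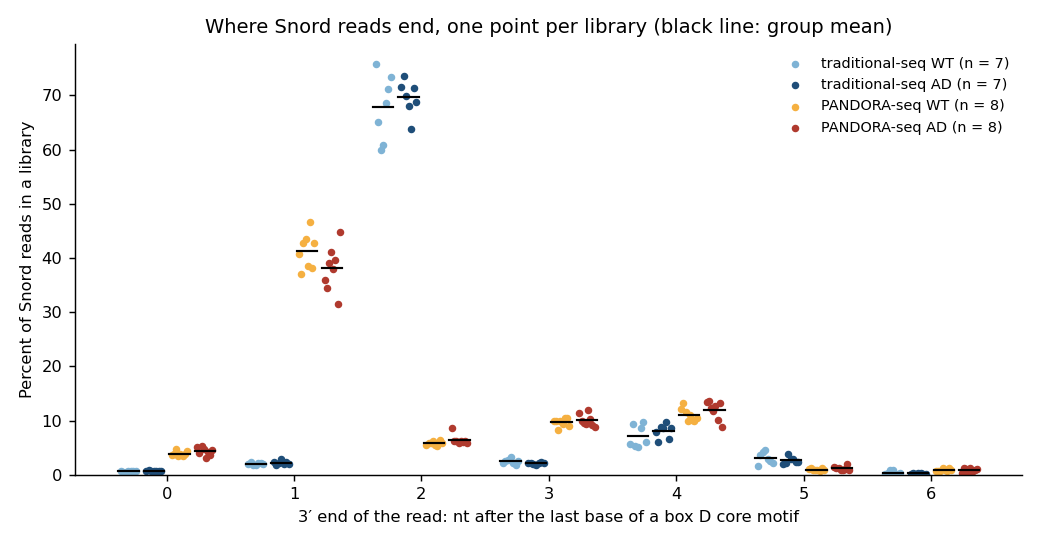
Percent of the Snord reads of a library (y axis) by the distance in nt from the last base of a CTGA motif to the 3′ end of the read (x axis), with 1 point per library and a black line at the mean of each group. Traditional-seq points lie between 60.0% and 75.7% at 2 nt, and PANDORA-seq points lie between 31.4% and 46.7% at 1 nt.

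Most of these reads ended at the last CTGA of the gene, the place of box D. Reads that ended 2 nt after the last CTGA of the gene made up 55.8% ± 3.02 of Snord reads in traditional-seq, and those 2 nt after an earlier CTGA 12.9% ± 2.68. In PANDORA-seq 36.04% ± 3.82 ended 1 nt after the last CTGA and 3.63% ± 0.562 after an earlier one. The 5′ part of the genes, where D′ lies, differed between the protocols. Of reads centred in the 5′ part, 51.7% ± 10.2 ended 2 nt after a CTGA in traditional-seq, while in PANDORA-seq 10.8% ± 1.93 ended 1 nt after one.

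The difference of 1 nt was also seen in miRNA hairpins. Among start positions with at least 2000 reads in each protocol, the most-read length was 1 nt shorter in PANDORA-seq at 12 of 20 positions in Snord genes and at 131 of 184 positions in miRNA hairpins. It was longer at 7 of these positions in Snord genes and at 17 in miRNA hairpins. In the other small RNA genes, which include the imprinted Snord group left out here, it was 1 nt shorter at 33 of 110 positions and longer at 61. Of 125 mature miRNAs matched to RefSeq (GRCm38), the most-read length equalled the RefSeq length for 75 in traditional-seq and 13 in PANDORA-seq, and was 1 nt shorter for 21 and 74. The source of this difference was not tested.

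Snord reads came to 2174 RPM ± 679 (SD, n = 14) in traditional-seq and 3637 RPM ± 950 (SD, n = 16) in PANDORA-seq. The lowest, median and highest libraries were 923, 2260 and 3095 RPM in traditional-seq and 1588, 3584 and 5551 RPM in PANDORA-seq, so the protocols overlapped. Without the 2 libraries that stood apart, traditional-seq had 2367 RPM ± 509 (n = 12, lowest 1578). Relative to the reads that matched a small RNA gene, in place of all reads, they did not overlap, with 1716, 4347 and 7301 RPM in traditional-seq and 22907, 31587 and 41104 RPM in PANDORA-seq. The traditional-seq values without the same 2 libraries were 4956 RPM ± 1263 with a lowest value of 3230. Matched reads made up 41.03% to 56.1% of a traditional-seq library and 6.39% to 15.9% of a PANDORA-seq library. The base of this scaling was thus smaller in PANDORA-seq, and the gap between the protocols depends on it. Of all reads, WT and AD libraries had 2149 RPM ± 833 and 2199 RPM ± 550 in traditional-seq (n = 7 each) and 3796 RPM ± 874 and 3478 RPM ± 1055 in PANDORA-seq (n = 8 each), differences smaller than the SD of each group. Relative to the matched reads, PANDORA-seq had 35049 RPM ± 4866 in WT (28959 to 41104) and 29650 RPM ± 4367 in AD (22907 to 35804), a difference larger than the SD of each group, although the libraries overlapped (p = 0.0371, adjusted p = 0.149 over 4 comparisons, exact two-sided permutation test). By length, PANDORA-seq Snord reads of 15 to 40 nt stood at 2803 RPM ± 704 of all reads in WT and 2965 RPM ± 960 in AD. Those of 43 to 45 nt stood at 450.2 RPM ± 113 in WT and 138 RPM ± 104 in AD. Without the 2 libraries that stood apart, traditional-seq WT had 2601 RPM ± 373 of all reads (n = 5), and the difference from AD was then larger than the SD of WT and smaller than that of AD.

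Lengths separated the protocols. The mean length of Snord reads was 28.2 nt ± 1.33 in traditional-seq, with 57.2% ± 4.38 of the reads at 25 to 29 nt, and 35.9 nt ± 0.886 in PANDORA-seq, with 46.01% ± 3.82 at 35 to 40 nt. Without the 2 libraries that stood apart, the traditional-seq values were 28.6 nt ± 0.5002 and 56.8% ± 4.66. The highest traditional-seq library had a mean of 29.5 nt and the lowest PANDORA-seq library 34.1 nt. By the midpoint of the fragment, the 3′ part of the gene held 74.9% ± 2.49 of the reads in traditional-seq and 66.2% ± 2.17 in PANDORA-seq, and these ranges (71.2% to 80.01% and 62.9% to 69.2%) did not overlap either. Without the 2 libraries that stood apart the traditional-seq share was 75.3% ± 2.43. The direction turned when 3′ end reads were counted within a window of the annotated end, with 34.1% ± 4.47 in traditional-seq and 37.7% ± 2.55 in PANDORA-seq within 5 nt, where the libraries overlapped, 8.83% and 19.4% within 2 nt, and 46.7% and 56.4% within 10 nt. Snora reads went from 74.3% ± 4.07 in the 3′ part in traditional-seq to 33.8% ± 6.94 in PANDORA-seq.

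**Figure D2:**
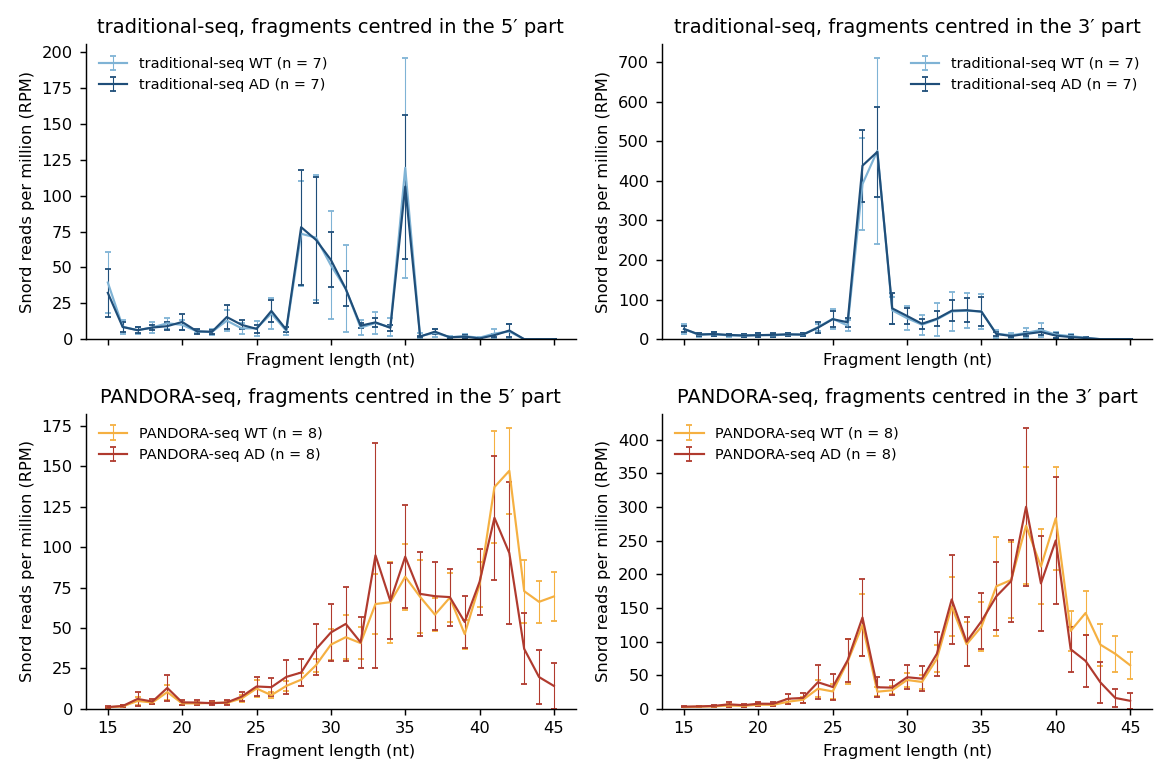
Mean Snord RPM (y axis, SD as error bars) at each fragment length in nt (x axis), for fragments centred in the 5′ part or 3′ part of the gene, with WT and AD as separate lines for each protocol. Traditional-seq had 57.2% of its Snord reads at 25 to 29 nt and PANDORA-seq 46.01% at 35 to 40 nt, and AD lay below WT in PANDORA-seq at 43 to 45 nt.

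Few genes gave most reads in traditional-seq. On the scale of RPM per 100 nt of the gene, which allows genes of different length to be compared, Snord85 led with 671 and was followed by Snord43 with 436, Snord52 with 176, Snord57 with 143, Snord91a with 138 and Snord69 with 122. Snord2, Snord19, Snord49a, Snord95, Snord118 and Snord12 followed, from 93.3 down to 35.7. Snord85 and Snord43 held 23.04% and 22.2% of all Snord reads. The libraries of these first genes overlapped with each other. Snord85 ran from 157 over 492 to 887 RPM (lowest, median, highest) and Snord43 from 269 over 470 to 717 RPM.

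In PANDORA-seq the levels were more even. Snord90 led with 256 RPM per 100 nt, followed by Snord14c with 243, Snord85 with 232, Snord95 with 231, Snord68 with 209, Snord69 with 179, Snord111 with 163, Snord83b with 144 and Snord32a with 134. Snord80 (77-nt entry), Snord14d and Snord104 came next, between 119 and 115. Summed over its 2 entries, Snord80 had 227 per 100 nt of the longer and 239 of the shorter entry (184 RPM ± 67.96 in all), near Snord14c, Snord85 and Snord95. Snord90, encoded inside Rc3h2, held 8.15% of Snord reads, and its libraries ran from 90.6 over 289 to 434 RPM. Those of Snord14c (128, 189 and 359 RPM) and Snord85 (62.0, 178 and 332 RPM) overlapped with it. At the other end, Snord78 had 0.200, Snord1c 0.788, Snord7 1.24 and Snord13 1.26 RPM per 100 nt. Snord13 is U13, which was listed here with the RNAs for rRNA processing, and Snord7 guides methylation of the U6 spliceosomal RNA.

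The leading fragments of these genes in PANDORA-seq show the longer products of this protocol.
Snord68: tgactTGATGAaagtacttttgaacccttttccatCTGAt
Snord111: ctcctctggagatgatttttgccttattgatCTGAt
Snord90: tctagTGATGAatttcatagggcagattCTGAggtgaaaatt

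The 40-nt fragment of Snord68 (chr8:123103065-123103104, plus strand, inside Rpl13) had 83.0 RPM ± 36.9 in PANDORA-seq and 0.236 RPM ± 0.229 in traditional-seq. The 36-nt fragment of Snord111 (chr8:110838535-110838570, minus strand, inside Sf3b3) had 60.5 RPM ± 31.98 and 0.0120 RPM ± 0.0451. The 42-nt fragment of Snord90 (chr2:37400098-37400139, minus strand) had 43.1 RPM ± 22.4 in PANDORA-seq and was found in no traditional-seq library. The Snord68 and Snord111 fragments ended 1 nt after a CTGA, and that of Snord90 ran past one.

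The question of which snoRNAs have more or fewer reads in PANDORA-seq was tested gene by gene over all 30 libraries. The protocols also differ in depth and in the lengths of the deposited reads, so the part of AlkB and polynucleotide kinase was not tested. A gene was called when its adjusted p was under 0.05 (edgeR quasi-likelihood test, genotype as a covariate, Benjamini-Hochberg over all genes tested) and its log2 fold change was over 1 in size. Of the 80 Snord genes tested, 43 were higher (53.8%) and 15 lower (18.8%) in PANDORA-seq. Over all 1568 genes tested, 48.7% were called higher and 32.6% lower. The median log2 fold change was 1.12 over the Snord genes and 0.90 over all genes. This split depends on how libraries are scaled: with library size in place of TMM factors it was 57 higher and 7 lower, with medians of 2.08 and 1.88 and with 60.3% and 25.2% called over all genes. With sequences that match a single gene it was 60 higher and 4 lower of 75, with 50.2% and 34% called over all genes. The medians were then 2.999 over the Snord genes and 1.03 over all genes, further apart than with all sequences. Over reads of 15 to 40 nt it was 43 higher and 17 lower of 79, against 627 and 494 of all 1535 genes, with medians of 1.29 and 0.57. Within WT libraries the counts were 35 and 14 of 80 (46.8% and 32.3% of all genes), within AD libraries 45 and 15 of 79 (44.7% and 31.8%), and without the 2 libraries that stood apart 40 and 16 of 80 (48.2% and 32.3%).

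Snord35a, a large-subunit guide inside Rpl13a, rose most. Its libraries ran from 0 over 0.0917 to 0.429 RPM in traditional-seq and from 3.19 over 9.16 to 27.4 RPM in PANDORA-seq, with no overlap (log2 fold change 5.44 ± 0.40 SE, adjusted p = 1.65e-15, edgeR). Snord68 went from 0.965, 5.16 and 9.57 RPM to 89.2, 196 and 304 RPM (4.19 ± 0.31). Snord111 went from 2.21, 5.84 and 9.53 RPM to 68.8, 132 and 315 RPM (3.69 ± 0.24). Snord58b inside Rpl17 (3.53 ± 0.29), Snord11 inside Nop58 (3.42 ± 0.27) and Snord14a inside Rps13 (3.29 ± 0.32) followed, and the libraries of these 6 genes did not overlap between the protocols. The share of all genes tested without such overlap was not counted, so this is not a trait of these genes alone. Each of the 6 was called higher under every scaling, filter and single-gene setting that was run.

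Snord43 fell most. Its libraries ran from 269 over 470 to 717 RPM in traditional-seq and from 19.6 over 61.4 to 117.96 RPM in PANDORA-seq, with no overlap (log2 fold change -3.97 ± 0.21 SE, adjusted p = 3.84e-20, edgeR). Snord78 inside Gas5 (-3.21 ± 0.38), a gene at the limit of the filter on low counts that was still tested in 8 of 30 fits with 1 library left out, Snord87 inside Snhg6 (-2.9996 ± 0.21), Snord98 inside Ccar1 (-2.89 ± 0.29), Snord85 (-2.60 ± 0.24) and Snord91a inside Tsr1 (-2.20 ± 0.26) were lower too, but their libraries overlapped between the protocols in RPM. With single-gene sequences the values of these 6 genes moved closer to 0, to between -2.07 for Snord43 and -0.38 for Snord91a.

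**Figure D3:**
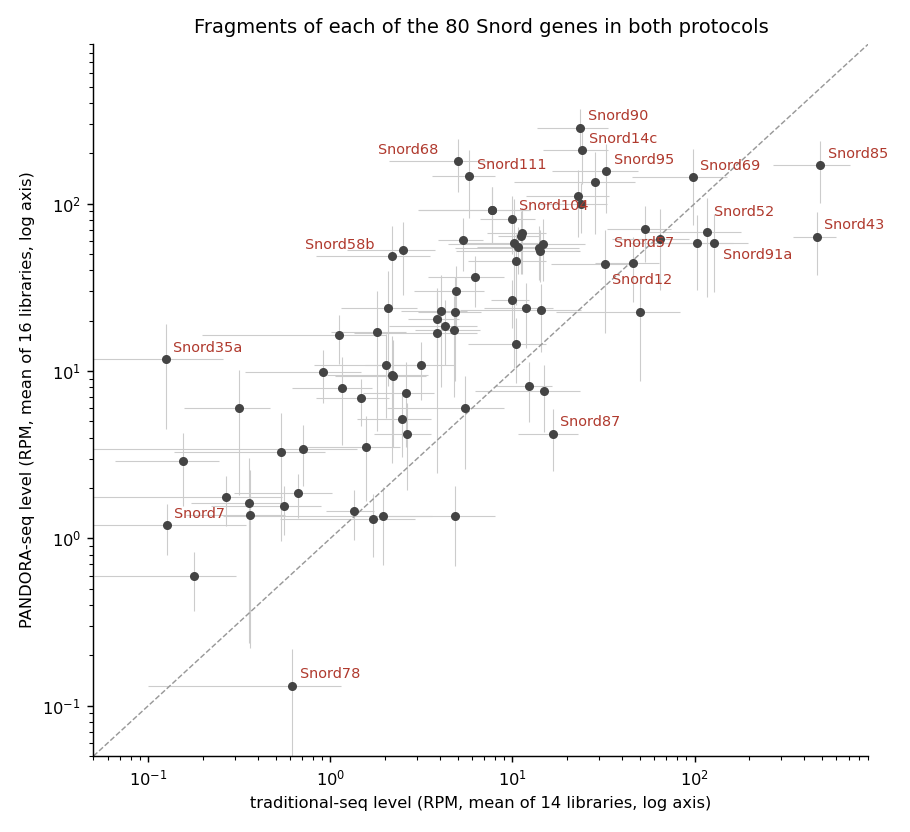
Mean level of each of the 80 Snord genes in traditional-seq (x axis, RPM, log scale, 14 libraries) and PANDORA-seq (y axis, RPM, log scale, 16 libraries), with SD bars and a dashed line of equal RPM. Snord43 and Snord85 lie below the line at the right, and Snord35a, Snord68 and Snord111 lie far above it.

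The members of the Gas5 host and those of the Rpl13a host did not all move in the same direction. Of the 4 Gas5 members, both Snord80 entries (2.52 each) and Snord47 (1.45) were called higher and Snord78 lower. Of the 4 Rpl13a members, Snord35a, Snord33 (1.40) and Snord32a (1.28) were called higher and Snord34 lower (-1.96). Of 7 members listed here for rRNA processing, Snord22 (2.61) and 4 copies of U14 (1.11 to 3.29) were called higher and U13 lower (-1.38). U8, encoded by Snord118, was not called (-0.61 ± 0.21). Its 28-nt fragment gaaaaTGATGAttggagcttgcatgatc held 84.6% of the reads of the gene in traditional-seq (45.4 RPM ± 20.7) and had 0.197 RPM ± 0.101 in PANDORA-seq, while the gene as a whole had a median of 59.0 RPM in traditional-seq and 66.3 RPM in PANDORA-seq. Snord22, the 1 member found of the Snhg1 host, is named above, the Snord50 pair had no call (0.99 and 0.91), and no member of the list from the Dlk1-Dio3 locus was found.

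The balance of the ends was compared within each gene, as the log2 ratio of 5′ end reads (starting within 5 nt of the annotated start) to 3′ end reads (ending within 5 nt of the annotated end). This ratio uses no library scaling. Since 0.5 was added to the reads of each end, it still moves with depth where an end has almost no reads. Depth differed between the protocols, and its part in these ratios was not tested. Of 47 Snord genes with enough end reads, 18 had a higher and 17 a lower ratio in PANDORA-seq (limma, adjusted p under 0.05 and a difference over 1). Over all 315 genes tested, 34% were called higher and 32.7% lower. Without the 2 libraries that stood apart, the counts were 18 and 17 as well, against 33.8% and 32.5% of all genes. With 2 added to each end in place of 0.5, they were 18 and 19, against 104 and 108 of all 315 genes.

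Of the U14 copies, Snord14c and Snord14d had enough end reads, and their ratios shifted most towards the 3′ end. The ratio of Snord14c had a lowest, median and highest value of 2.19, 3.76 and 4.18 in traditional-seq and -5.30, -3.52 and -2.37 in PANDORA-seq (difference -7.30 ± 0.28 SE, adjusted p = 3.82e-22, limma). Snord14d (-6.42 ± 0.26), which shares the 5′ end piece, and Snord52 (-5.74 ± 0.49), Snord99 (-5.45 ± 0.46), Snord100 (-4.78 ± 0.43) and Snord93 (-4.30 ± 0.57) followed. The ratios of Snord14c, Snord14d, Snord52 and Snord99 did not overlap between the protocols, while those of Snord100 and Snord93 did. Snord99 lay far on the 3′ side in both protocols (means of -5.87 in traditional-seq and -11.3 in PANDORA-seq), where 5′ end reads were few. The part of depth in its difference was not tested. The share of all ratios tested without such overlap was not counted, here or for the genes below.

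In the other direction, Snord58b had ratios of -4.35, -1.89 and 0.692 in traditional-seq and 4.63, 6.15 and 7.32 in PANDORA-seq (8.08 ± 0.45, adjusted p = 7.62e-18, limma). Snord4a (5.74 ± 0.37), Snord55 (5.51 ± 0.27), the 77-nt entry of Snord80 (4.63 ± 0.35), Snord60 (4.56 ± 0.28) and Snord32a (4.21 ± 0.46) moved the same way, and the ratios of these 6 genes did not overlap. Those of Snord55 and Snord80 turned to -0.88 and -2.19 when ends were taken within 10 nt, and to -0.87 and -2.63 when reads were split by their midpoint, so their direction rests on where an end is set.

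**Figure D4:**
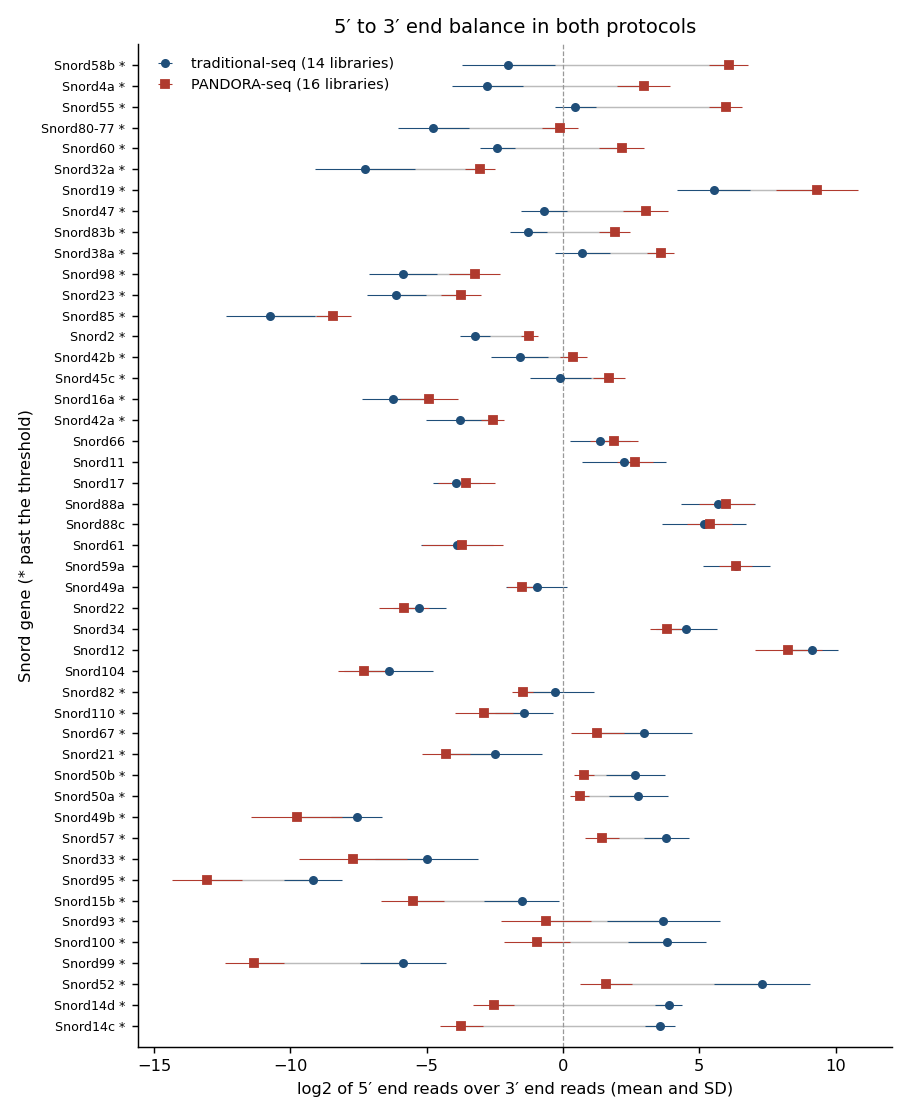
Log2 ratio of 5′ to 3′ end reads (x axis, mean and SD) in traditional-seq (circles, 14 libraries) and PANDORA-seq (squares, 16 libraries) for each of the 47 Snord genes tested, ordered by the difference. A star marks the 18 genes called higher and the 17 called lower in PANDORA-seq, with Snord58b at the top and Snord14c at the bottom.

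The question of whether snoRNA fragments differ in the AD cortex was first tested per gene in PANDORA-seq. Of the 80 Snord genes, 0 were called higher and 1, Snord12, was called lower in AD (edgeR), against 0.91% and 11% of all 1648 genes tested. At an unadjusted p under 0.05 there were 11 Snord genes, against 20.5% of all genes, and DESeq2 called 2 higher and 1 lower, against 3.64% and 10.6% of all genes. The median log2 fold change was 0.03 over the Snord genes and 0.01 over all genes. In bulk tissue, fewer cells of a type and less RNA per cell cannot be told apart.

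Snord12 had a lowest, median and highest level of 38.6, 60.3 and 100.5 RPM in WT and 4.33, 22.2 and 37.7 RPM in AD, with no overlap (log2 fold change -1.47 ± 0.28 SE, adjusted p = 0.000389, edgeR). The share of all genes tested without such overlap was not counted. The difference in Snord12 lay in the long fragments. At 41 to 45 nt the WT values were 31.5, 52.8 and 92.0 RPM and the AD values 2.20, 13.3 and 31.5 RPM, which just did not overlap. At 15 to 40 nt they were 6.61, 7.49 and 8.47 RPM in WT and 2.13, 6.28 and 12.2 RPM in AD, which overlapped, and the log2 fold change over these lengths was -0.39 (adjusted p = 0.723, edgeR). Over these lengths 0 of 79 Snord genes and 0% of all genes were called in either direction, with 4 Snord genes and 5.44% of all genes at an unadjusted p under 0.05. In traditional-seq Snord12 was not called (-0.49 ± 0.43, adjusted p = 0.997, edgeR), and the difference between the protocols in its AD effect was -0.81 ± 0.51 (adjusted p = 0.599, edgeR). A 15-nt piece held 86.4% of the Snord12 reads in traditional-seq, so the values of the protocols describe largely different fragments. For that interaction 0 of the 80 Snord genes were called, with 1 at an unadjusted p under 0.05, against 0.471% higher, 7.07% lower and 14.3% at an unadjusted p under 0.05 of all 1698 genes tested.

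Long fragments were fewer in AD for all RNAs of the PANDORA-seq libraries. Reads of 43 to 45 nt made up 15.5% ± 3.19 of all reads in WT and 4.95% ± 2.90 in AD (n = 8 each). The sources used here describe 1 gel excision for all samples and do not say whether the WT and AD libraries were cut or trimmed in the same way. A difference of genotype and a difference in the handling of long fragments thus cannot be told apart in the AD results below. The same holds above for Snord12 and for the summed Snord levels of WT and AD in PANDORA-seq. Among Snord reads the share at 43 to 45 nt was 12.03% ± 2.75 in WT and 3.96% ± 2.93 in AD. The WT libraries ran from 8.53% to 16.4% and the AD libraries from 1.598% to 9.54%, and AD replicate 6 lay above 2 of the WT libraries. Relative to all reads of that same length, Snord reads were 2898 ± 400.4 RPM in WT and 2567 ± 724 RPM in AD, which overlapped. The mean length of Snord reads was 36.6 nt ± 0.551 in WT and 35.3 nt ± 0.603 in AD, with the lowest WT library at 35.9 nt and the highest AD library at 35.8 nt. Over reads of 15 to 40 nt it was 34.4 nt ± 0.362 and 34.1 nt ± 0.464, and the groups overlapped.

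**Figure D5:**
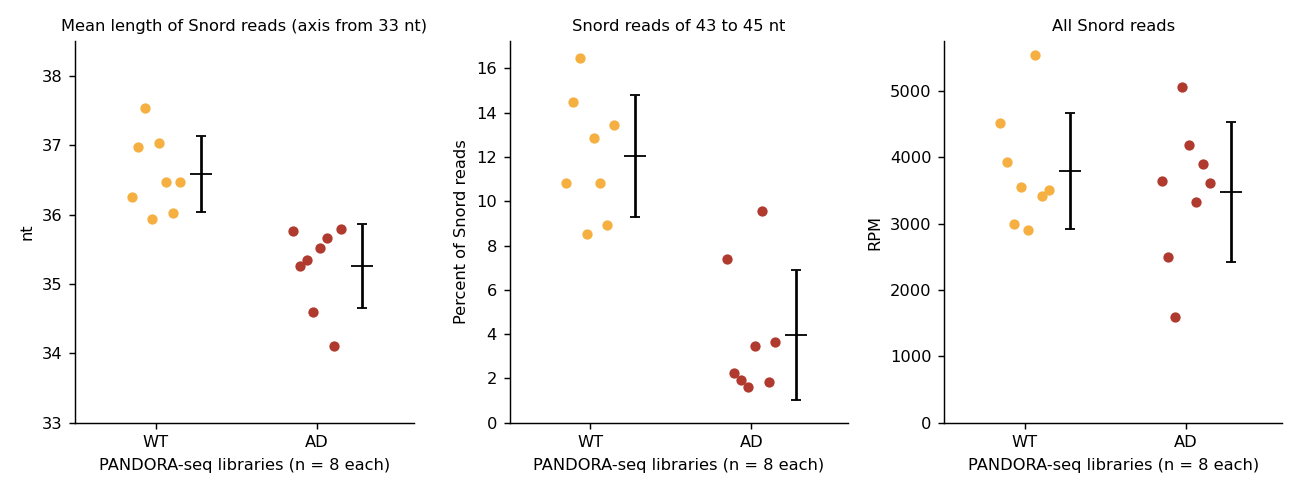
Mean length of Snord reads in nt (axis from 33 nt), percent of Snord reads at 43 to 45 nt, and all Snord reads in RPM, with 1 point per PANDORA-seq library (8 WT, 8 AD) and the mean and SD beside them. The mean lengths of the groups do not overlap, the long-read shares overlap only through 1 AD library at 9.54%, and the RPM overlap widely.

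By position in the gene, 2 of 200 Snord features were called higher and 5 lower in AD (edgeR), against 1.29% and 12.5% of all 2792 features tested. These counts changed with the settings: they were 10 and 4 with DESeq2 (4.01% and 12.5% of all features), 5 and 3 with DESeq2 size factors (2.47% and 12.2%), 0 and 4 with library size (0.466% and 13.8%) and 0 and 6 with the replicate block (0.681% and 12%), so the higher counts moved with those of all features. The higher count of Snord features ran from 0 (without WT replicate 6) to 8 (without WT replicate 3) and the lower count from 2 (without AD replicate 3) to 6 with 1 library left out. An unadjusted p under 0.05 was found for 40 of them and for 25.3% of all features. The higher ones were internal fragments of Snord73a (2.17 ± 0.68) and Snord65 (1.07 ± 0.33), both at low levels, and the Snord65 call was lost without AD replicate 7 (0.73) or without WT replicate 1 or 6 (1.04 and 1.004). Snord73a ran from 0.0174 over 0.0809 to 0.341 RPM in WT and from 0.0726 over 0.217 to 2.33 RPM in AD, and the groups overlapped. Its call was lost without any 1 of 7 libraries, and its value fell to 1.22 (adjusted p = 0.191, edgeR) without AD replicate 7.

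The lower ones were internal fragments of Snord12 (-1.43 ± 0.33), 5′ end fragments of Snord91a (-1.94 ± 0.50), Snord92 (-1.27 ± 0.33) and Snord110 (-1.05 ± 0.31), and 3′ end fragments of Snord1a (-1.42 ± 0.46). Internal Snord12 fragments ran from 32.2 over 56.1 to 98.3 RPM in WT and from 3.39 over 19.2 to 36.5 RPM in AD. The 5′ end fragments of Snord110, a small-subunit guide, ran from 3.37 over 3.88 to 5.57 RPM in WT and from 0.237 over 1.59 to 4.72 RPM in AD. Both pairs of groups overlapped, and the remaining features were below 6 RPM in every library. With 1 library left out, the Snord1a call was lost in 14 of 16 fits (all but those without WT replicate 7 or AD replicate 6), with values from -1.43 to -1.20. The Snord110 call was lost without WT replicate 3 or 7 or AD replicate 1, 2, 3, 4 or 7, where it lay between -0.998 and -0.76, and that of Snord92 without WT replicate 1 or AD replicate 3 (-0.96 and -0.95). Over reads of 15 to 40 nt, 0 of 191 Snord features and 0% of all were called, 14 and 6.37% of all had an unadjusted p under 0.05, and the 5′ end value of Snord92 turned to 0.08.

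The same length limit showed in single sequences. Of 1923 Snord sequences tested, 0 were called higher and 102 lower in AD (edgeR), against 0.144% and 4.32% of all 20076 sequences tested, with 306 Snord sequences and 15.2% of all at an unadjusted p under 0.05. The 102 came from 41 genes, with 10 from Snord91a, and their log2 fold changes ran from -5.69 to -1.56 with a median of -3.02. At 43 to 45 nt, 93 of 198 sequences were called (47%), at 41 to 42 nt 6 of 220 (2.73%), and at 15 to 40 nt 3 of 1505 (0.199%). Over all sequences of the same lengths 42.7%, 3.13% and 0.445% were called, so the shares of the Snord sequences were near those of all RNAs. The median log2 fold change was -2.26, -0.45 and 0.18 at these lengths, and -1.98, -0.33 and 0.23 over all sequences. Every AD library lay below every WT library for 50 of the 102 (49%), against 417 of the 868 called lower among all sequences (48%) and 2.09% of all sequences tested. A fit on reads of 15 to 40 nt alone called 0 of 1499 Snord sequences, with 71 at an unadjusted p under 0.05. Of all 16513 sequences in that fit 0.00606% were called higher and 0.103% lower, and 7.19% had an unadjusted p under 0.05.

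These long sequences were among the ones called lower, and are shown because their shorter forms led the PANDORA-seq libraries.
Snord80: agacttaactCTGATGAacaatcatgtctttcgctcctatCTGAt
Snord14c: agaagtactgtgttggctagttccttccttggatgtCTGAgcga
Snord90: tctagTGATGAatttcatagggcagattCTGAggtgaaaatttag

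The 45-nt sequence of Snord80 ran from 4.49 over 8.69 to 14.8 RPM in WT and from 0.0165 over 0.118 to 1.31 RPM in AD (-5.04 ± 0.65, adjusted p = 4.7e-05, edgeR). The 44-nt 3′ end sequence of Snord14c ran from 4.19 over 9.31 to 16.9 RPM and from 0.174 over 0.470 to 2.16 RPM (-3.72 ± 0.52). The 45-nt sequence of Snord90 ran from 4.42 over 6.72 to 8.22 RPM and from 0.0182 over 0.0918 to 1.45 RPM (-4.51 ± 0.67). For these 3 sequences every AD library lay below every WT library, while the Snord80, Snord14c and Snord90 genes as a whole were not called.

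The 3 called sequences of 15 to 40 nt were 22-nt and 23-nt pieces from the 5′ end of Snord57 and a 40-nt piece of Snord15b. The 22-nt piece of Snord57 ran from 0.217 over 0.551 to 1.79 RPM in WT and from 0 over 0.0705 to 0.291 RPM in AD (-2.79 ± 0.68, adjusted p = 0.0160, edgeR). Its groups overlapped, and these pieces were not called in the fit on reads of 15 to 40 nt.

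The 5′ to 3′ ratio was called higher in AD for 4 and lower for 4 of 72 Snord genes in PANDORA-seq (limma), against 12.5% and 4.41% of all 907 genes tested, and 17 Snord genes and 24.8% of all had an unadjusted p under 0.05. It was higher for Snord1a (2.08 ± 0.52), Snord100 (1.58 ± 0.46), Snord4a (1.26 ± 0.40) and Snord47 (1.23 ± 0.35), and lower for Snord92 (-1.74 ± 0.43), Snord16a (-1.33 ± 0.44), Snord8 (-1.32 ± 0.37) and Snord110 (-1.32 ± 0.43). Snord1a had ratios of 1.95, 2.36 and 3.45 in WT and 1.73, 4.59 and 6.11 in AD, and Snord92 had -1.69, -1.16 and -0.274 in WT and -4.19, -3.01 and -1.12 in AD, so the groups of both overlapped. With 1 library left out, the call was lost in 11 of 16 fits for Snord16a (kept without WT replicate 1 or 6 or AD replicate 1, 3 or 8; lost at -1.37 to -1.17) and in 10 for Snord110 (kept without WT replicate 2, 4 or 6 or AD replicate 1, 5 or 6; lost at -1.35 to -1.02). For Snord4a it was lost in 6 fits, those without WT replicate 1, 2, 6 or 8 or AD replicate 1 or 3 (1.09 to 1.22). Over reads of 15 to 40 nt 0 of 71 Snord genes and 0% of all 868 genes were called, with 3 Snord genes and 7.6% of all at an unadjusted p under 0.05, and the value of Snord1a turned to -0.57.

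In traditional-seq no Snord gene, position class, sequence or end ratio was called between AD and WT with edgeR or limma, nor with DESeq2 at the levels where it was run. Among 65 Snord genes tested, 0 had an unadjusted p under 0.05, against 0.987% of all 912 genes, and 0% of all genes were called. Among 92 position classes and 168 sequences none had an unadjusted p under 0.05 with the quasi-likelihood test of edgeR (against 0.62% and 0.719% of all). With the likelihood ratio test 1 sequence had one (0.966% of all), and with DESeq2 1 position class and 1 sequence (1.06% and 1.11% of all). Among 46 end ratios 1 did with limma, against 0.917% of all, and 0% of all features were called at each of these levels. Without the 2 libraries that stood apart 0 of 68 Snord genes were called and 1 had an unadjusted p under 0.05 (1.64% of all genes). The median log2 fold change then went from 0.07 to -0.19 over the Snord genes and from 0.0034 to 0.0226 over all genes. With all libraries, the smallest p-values were those of Snord93, which ran from 0.276 over 0.843 to 3.14 RPM in WT and from 0.176 over 2.56 to 5.03 RPM in AD (1.05 ± 0.65, adjusted p = 0.997, edgeR), Snord23 (0.44 ± 0.34) and Snord90 (-0.35 ± 0.28). Among position classes they were the 5′ ends of Snord93 (1.19 ± 0.67), Snord60 (0.53 ± 0.34) and Snord15b (-0.67 ± 0.45), and among end ratios Snord98 (1.22 ± 0.56), Snord19 (1.17 ± 0.62) and Snord34 (-0.95 ± 0.53).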

How the data were processed

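The authors removed adapters, collapsed identical reads and deposited a count per sequence and library, without normalization or coordinates; the submitters' notes name the build mm39, and the paper names SPORTS1.1 and edgeR. Here each sequence was matched whole, exactly and sense to the GENCODE vM21 transcripts (GRCm38) of the 6112 small RNA genes of the reference. Coordinates and host genes come from that annotation. Whether a sequence also fits RNAs outside this reference was not tested. Gene counts split a sequence that matched several places equally and were rounded. Sequences that match a single gene of the reference made up 93.3% of Snord reads in traditional-seq and 85.3% in PANDORA-seq. RPM scales by all reads of a library.

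Counts were tested with edgeR 4.0.16 (TMM, filterByExpr with a count minimum of 10 and a total of 15) in R 4.3.3 and end ratios with limma 3.58.1 on log2((5′ + 0.5)/(3′ + 0.5)) where the mean was at least 20 end reads in each group of libraries. Alternatives were DESeq2 1.42.0, the likelihood ratio test, other scalings, filters, lengths and end windows, and each library left out in turn. Named genes are the 12 highest in each protocol, up to 10 called members per direction of each genotype comparison (or the 3 with the smallest p), the 6 largest changes per direction between protocols, and the listed groups; the single sequences shown were chosen after their values were seen. The members and lists were chosen with earlier results of these data known. No libraries agreed within sampling noise, so none was counted as a duplicate. Reads carry no molecular identifiers, so counts alone understate the error. The tests take their error from the spread between libraries. Scripts were tested on simulated data.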

Additional observations from a re-analysis of the deposited data

Results flagged for a closer look

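In 37 measures (the level of 30 named members and 7 summed measures), 148 groups of libraries were searched for a library far from the rest by the gap to its nearest neighbour, and 10 were found. Chance gives about 1 in 20 groups, so this number is near what chance gives. In PANDORA-seq WT, replicate 6 was highest for Snord111 (315 RPM against a median of 136 in the others), Snord57 (141 against 61.5) and Snord69 (326 against 120), and replicate 1 for Snord35a (27.4 against 10.3). In PANDORA-seq AD, replicate 1 was highest for Snord14a (19.6 RPM against 6.07) and for the share of Snord reads that end 2 nt after CTGA (8.55% against 6.17%), replicate 5 for Snord19 (61.7 against 18.1) and replicate 4 for Snord95 (328 against 119). In traditional-seq, AD replicate 1 was highest for Snord104 (16.8 RPM against 9.87) and WT replicate 7 for Snord57 (224 against 87.4).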

How the results depend on the processing

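Over reads of 15 to 40 nt every AD call in PANDORA-seq was lost: 0 genes, 0 features by position, 0 sequences and 0 end ratios were called in either direction, the Snord92 5′ end value became 0.0753 and the Snord1a ratio -0.57. This setting leaves out the lengths at which most called sequences lay. In the following, percentages in brackets are the shares called over all genes, features, sequences or ratios in the same fit. For genes, DESeq2 called 2 (3.64%) and DESeq2 size factors 1 (2.12%) higher in AD. By position the count of higher features was 4 with the likelihood ratio test (2.04%), 10 with DESeq2 (4.01%), 5 with DESeq2 size factors (2.47%), and 0 with library size (0.466%), single-gene sequences (0.459%) or the replicate block (0.681%); the lower count was 3 with DESeq2 size factors (12.2%) or a loose filter (6.93%). For sequences the higher count was 2 with the likelihood ratio test (0.712%) or single-gene sequences (0.167%), 8 with DESeq2 (0.907%), 7 with a loose filter (0.158%) and 1 with the replicate block (0.0598%). The lower count was 162 with DESeq2 (6.54%) and 321 of 9528 with a loose filter, or 3.37% against 2.91% of all, where it was 102 of 1923 or 5.3% before. For the AD ratio, a 2-nt window gave 2 higher (1.43%), and single-gene sequences (1.61%) or the replicate block (3.2%) 2 lower. Between protocols, library size gave 7 (25.2%) and single-gene sequences 4 genes lower (34%). A minimum of 100 end reads gave 6 ratios higher (34.3%) and 10 lower (42%) of 23, with fewer genes tested, and a 2-nt window (31.1%) or single-gene sequences (32.8%) 11 lower. Snord55 turned to -0.88 and -0.87, and Snord80 to -2.19 and -2.63, with a 10-nt window and the midpoint. Beyond the lengths and genes left out, the cause was not tested.

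As a share of matched reads Snord reads were 4522 RPM in traditional-seq and 32349 RPM in PANDORA-seq, where matched reads were a smaller part of the library. By window, 5′ end reads were 18.6% (2 nt) and 25.1% (midpoint) in traditional-seq and 18.2%, 24.4% (10 nt), 33.8% and, at 15 to 40 nt, 21.4% in PANDORA-seq. Internal reads were 72.6% (2 nt) and 31.5% (10 nt) against 62.4% and 19.2%, and 3′ end reads 8.83%, 46.7% and 74.9% (midpoint) against 19.4%, 56.4% and 66.2%.

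With each library left out in turn, AD counts in PANDORA-seq ran from 0 to 1 genes higher and 1 to 1 lower, 0 to 8 position features higher and 2 to 6 lower, 0 to 2 sequences higher and 90 to 141 lower, and 3 to 6 ratios higher and 2 to 5 lower. The count of higher position features was 8 without WT replicate 3, 7 without AD replicate 1 or 5, 6 without AD replicate 3 or 4, 4 without AD replicate 8, 1 without WT replicate 1, 4, 5 or 7 or AD replicate 2 or 7, and 0 without WT replicate 6. The lower count was 2 without AD replicate 3 and 3 without WT replicate 3 or AD replicate 1, 2, 4 or 7, and lower ratios were 2 without WT replicate 3, 5, 7 or 8 or AD replicate 2, 4 or 7. Between protocols the ranges were 41 to 49 genes higher and 12 to 16 lower, and 17 to 18 ratios higher and 16 to 18 lower. Traditional-seq AD counts stayed at 0. Of 1075 values of named genes without 1 library, 60 lost their call and 0 changed direction. All 60 losses were among the AD calls in PANDORA-seq, and the calls between protocols had 0. The 1075 also hold traditional-seq AD values, which had no call to lose.

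The libraries of the protocols share 14 codes, and the labels do not say whether these stand for the same mice. With these codes as a block, 48 genes were higher and 10 lower of 79 between protocols (52.1% and 31.1%), and correlations of deviations ran from -0.200 to 0.219. Replicate numbers did not pair the libraries, with correlations of deviations from -0.455 to 0.4999 in PANDORA-seq and -0.509 to 0.613 in traditional-seq. With the replicate block the counts were 0 genes higher and 1 lower in AD (0.182% and 10.7%), 0 and 6 position features (0.681% and 12%), 1 and 124 sequences (0.0598% and 4.85%), 3 and 2 ratios (12.3% and 3.2%), and 45 and 15 genes between protocols (48.9% and 32.6%). The extension of each gene by 10 nt was not run, since no genome was used here. Settings within a genotype, without the pair of libraries that stood apart, by interaction and by distance from CTGA were chosen after seeing the data. The permutation test of summed Snord levels was not planned.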
